A study of Mus musculus with 16 samples.

Results

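Some miRNAs are made without the Microprocessor, and 7 of them were followed here across 4 groups of mouse forebrain neuron cultures. They were listed by name, from how their precursors are known to arise, and with earlier results of these data known. The mirtrons were mmu-miR-1224-5p, mmu-miR-877-5p and mmu-miR-877-3p. The miRNAs of capped precursors were mmu-miR-320-3p and mmu-miR-484. The miRNAs of a snoRNA-like transcript were mmu-miR-1839-5p and mmu-miR-1839-3p. These were 7 of the 1978 mature miRNA names counted, all 7 were among the 483 names with enough reads to be tested, and no other name had the same counts as any of them.

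Small RNA was sequenced from primary cultures of perinatal mouse forebrain neurons, and every culture had been transduced with a lentiviral vector. The groups were a short hairpin RNA (shRNA), the same label with 2 point mutations (shRNA_2bp), the same label with 5 point mutations (shRNA_5bp), and a vector without hairpin (Empty_Vector), with 4 libraries each. The labels give neither the gene the hairpin was made against nor its sequence, and they name no mouse strain, age beyond perinatal, or time after transduction. Whether a group's 4 libraries are separate cultures, or separate animals, is not stated, so the p-values measure the spread between these libraries, which may be technical. The design sets each hairpin against the empty vector, and the mutated hairpins against the unmutated one and against each other. The 3 comparisons with Empty_Vector share its 4 libraries.

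In the canonical pathway the Microprocessor, made of the nuclease Drosha and its partner DGCR8, cuts a hairpin out of a long primary transcript, and Exportin-5 and Dicer then take it to a mature miRNA duplex. A mirtron skips that cut: the hairpin is a whole short intron, released by splicing and debranching. The precursors of miR-320 and miR-484 begin at a transcription start, carry the cap of a polymerase II transcript, leave the nucleus through Exportin-1 and are cut by Dicer, and in human cells Dicer likewise cuts fragments from the small nucleolar RNA ACA45, of the class to which the miR-1839 transcript belongs.

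The mature sequences are shown with the seed, bases 2 to 8, in capitals, because the seed sets which messenger RNAs a miRNA can pair with. They come from RefSeq on GRCm38.p6.
miR-1224-5p: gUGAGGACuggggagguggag
miR-877-5p: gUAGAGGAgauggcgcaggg
miR-877-3p: uGUCCUCUucucccuccuccca
miR-484: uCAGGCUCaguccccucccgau
miR-1839-5p: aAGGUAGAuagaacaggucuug
Each of these 5 seeds belonged to 1 name among the 1679 mature mouse names with a sequence, so none was shared between these 5 members. GC content was 66.7% in miR-1224-5p, 65.0% in miR-877-5p, 59.1% in miR-877-3p and 63.6% in miR-484, against 40.9% in miR-1839-5p.

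The hairpins of both mirtron loci are shown because their ends are splice sites, and that of Mir1839 for contrast, with capitals for miR-1224-5p and miR-1224-3p, for miR-877-5p and miR-877-3p, and for miR-1839-5p.
Mir1224: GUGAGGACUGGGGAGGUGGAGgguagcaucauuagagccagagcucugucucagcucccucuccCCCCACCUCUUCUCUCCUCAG
Mir877: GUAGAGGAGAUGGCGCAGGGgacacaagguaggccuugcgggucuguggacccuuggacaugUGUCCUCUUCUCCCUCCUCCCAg
Mir1839: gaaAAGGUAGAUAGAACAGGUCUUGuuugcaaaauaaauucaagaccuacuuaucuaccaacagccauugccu
Both mirtron hairpins began with GU and ended with AG, the letters at the ends of most introns, and the snoRNA-like hairpin began with GA and ended with CU. Their GC content was 60.0% in Mir1224, 61.2% in Mir877 and 37.0% in Mir1839. miR-1224-5p and miR-877-5p began at base 1 of the hairpin, at the 5′ splice site, whereas miR-1839-5p began at base 4.

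On GRCm38 the Mir1224 hairpin lay at chr16:20604452-20604536 on the plus strand, and its 85 bases filled 1 intron of the protein-coding gene Vwa5b2 exactly. Mir877 lay at chr17:35960730-35960814 on the minus strand and filled, with its 85 bases, an intron of Abcf1, which encodes a ribosome-associated ATP-binding protein. Mir320 lay at chr14:70443510-70443591 on the plus strand, 63 bases from the annotated start of Polr3d, a subunit of RNA polymerase III, which runs the other way. Mir484 lay at chr16:14159626-14159692 on the plus strand and overlapped an exon of Marf1, a meiosis regulator that runs the other way. Mir1839 lay at chr7:81529916-81529988 on the plus strand, inside an exon of the long noncoding RNA 2900076A07Rik, and shared 66 bases with an annotated scaRNA of 127 bases. The 5 loci therefore showed 3 arrangements: introns filled end to end, a hairpin beside or within a gene on the opposite strand, and a small nuclear-body RNA within a noncoding exon.

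**Figure D1:**
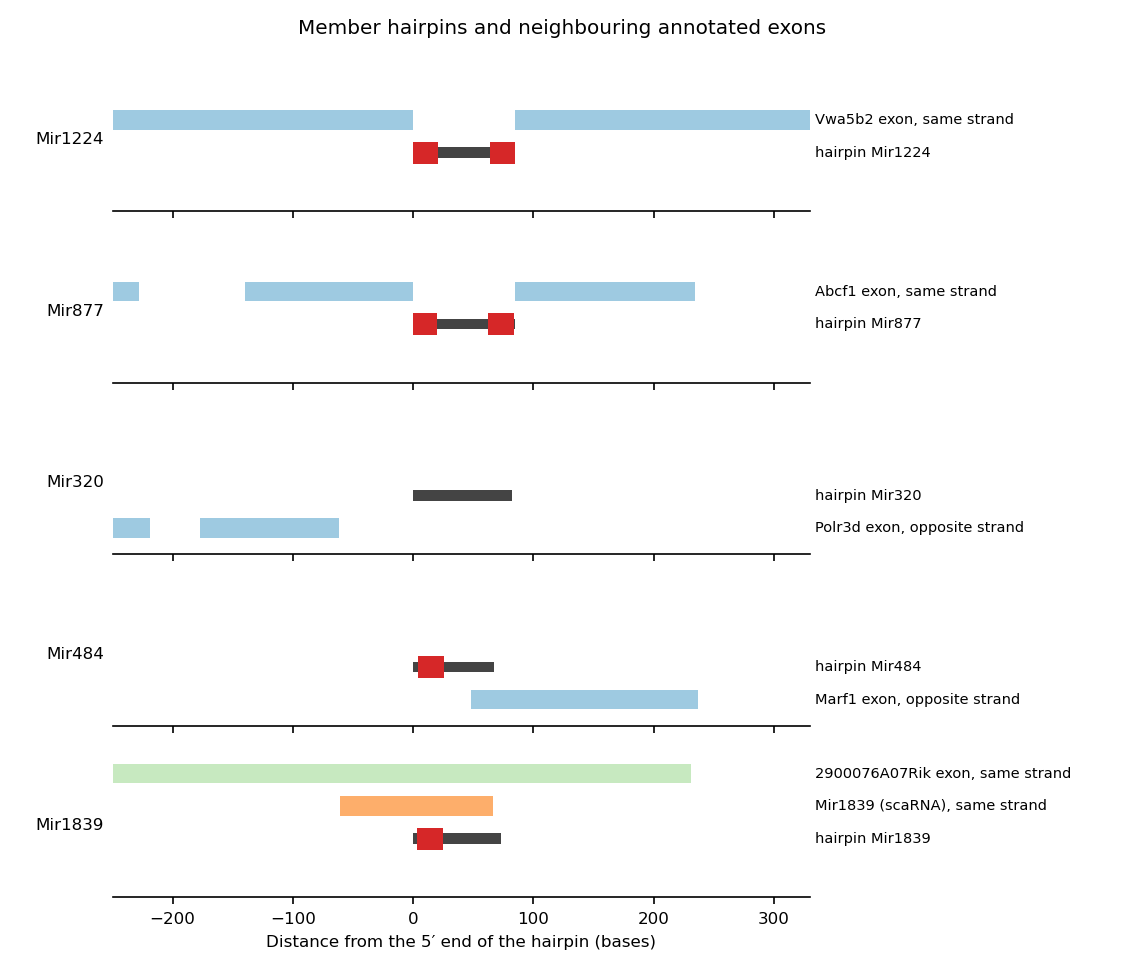
Hairpins (dark bars), mature arms (red) and annotated exons or scaRNA (pale bars) at the 5 loci, to scale, against distance in bases from the hairpin's 5′ end. The hairpins of Mir1224 and Mir877 fill the gap between 2 exons of their host genes, and the other 3 hairpins do not.

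Libraries held 5.3 to 8.06 M counted reads with shRNA, 1.18 to 2.1 M with shRNA_2bp, 0.832 to 2.5 M with shRNA_5bp and 2.76 to 11.1 M reads with Empty_Vector, so the mutated hairpins have the widest counting error. All 9 neuronal marker miRNAs were detected, summing to 405000 to 457000 counts per 1 M reads (CPM) with shRNA, 347000 to 378000 CPM with shRNA_2bp, 324000 to 379000 CPM with shRNA_5bp and 516000 to 550000 CPM with Empty_Vector. The 7 vascular or fibroblast markers summed to 681 to 781 CPM with shRNA, 1200 to 1440 CPM with shRNA_2bp, 1130 to 1360 CPM with shRNA_5bp and 720 to 820 CPM with Empty_Vector. The 6 microglial or leukocyte markers summed to 77.8 to 106 CPM with shRNA, 88.7 to 104 CPM with shRNA_2bp, 65.7 to 86.3 CPM with shRNA_5bp and 51.1 to 61.4 CPM with Empty_Vector, with miR-223-3p and miR-142a-3p at 0 in every library. Most neuronal marker reads were of miR-128-3p, and the single markers went both ways: of the 9, 4 rose and 4 fell with shRNA_2bp and 5 rose and 2 fell with shRNA_5bp, with a median fold change of 0.20 on the log2 scale in each. Of the 5 vascular or fibroblast markers tested, 4 rose with shRNA_2bp and 3 with shRNA_5bp. Most reads of that set were of miR-126a-3p, while miR-145a-5p and miR-214-3p had 6 and 17 reads in all. Of all 483 tested miRNAs, 161 rose and 156 fell with shRNA_2bp, and 152 rose and 129 fell with shRNA_5bp. Of the 4 astroglial markers 3 rose with shRNA_2bp and 2 with shRNA_5bp, and 0 fell with either. With the unmutated shRNA 3 neuronal markers rose and 2 fell, 2 astroglial markers rose and 0 fell, and 0 vascular or fibroblast markers rose or fell. Both tested microglial or leukocyte markers rose with shRNA, as did 1 with shRNA_2bp and 1 with shRNA_5bp. Of all tested miRNAs 95 rose and 73 fell with shRNA. The part of these markers in the member changes below was not tested. In these cultures, fewer cells of a type and less miRNA per cell cannot be told apart.

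With shRNA_2bp the mirtron arms had the largest fold changes of the 7 members, both against Empty_Vector and against shRNA. All 3 mirtron arms fell with shRNA_2bp against Empty_Vector, with fold changes between -2.67 and -1.69 on the log2 scale, in a comparison where 32.3% of all tested miRNAs fell. All 3 also fell with shRNA_5bp, where 26.7% of all fell, and both 5p arms fell by less than with shRNA_2bp. With the unmutated shRNA 1 arm, miR-877-5p, rose, where 19.7% of all rose. Levels are CPM after TMM scaling (trimmed mean of M values) of the library totals, and fold changes are log2 values ± standard error from edgeR's quasi-likelihood test, with p adjusted by Benjamini-Hochberg over the 483 tested miRNAs; a miRNA is said to have risen or fallen where that adjusted p was below 0.05.

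The 4 libraries of miR-1224-5p held 113, 106, 112 and 101 CPM with shRNA, 11.4, 19, 7.81 and 19.6 CPM with shRNA_2bp, 68, 69.4, 70.2 and 59 CPM with shRNA_5bp, and 85.4, 94.7, 113 and 83.3 CPM with Empty_Vector. All shRNA_2bp libraries lay lowest, all shRNA_5bp libraries came next, and the shRNA libraries overlapped those of Empty_Vector. miR-1224-5p fell by 2.67 ± 0.173 with shRNA_2bp against Empty_Vector (edgeR adjusted p = 5.84e-14), which is 6.37 times lower, and fell by 0.49 ± 0.140 with shRNA_5bp (edgeR adjusted p = 0.0035). The shRNA_2bp value was the 7th lowest fold change of the 483. With shRNA the difference was 0.21 ± 0.122 (edgeR adjusted p = 0.204; 95% interval -0.04 to 0.46). Without Empty_Vector library 3 it was 0.36 and passed the test (edgeR adjusted p = 0.029). With library totals in place of TMM scaling the shRNA_5bp difference was -0.25 and did not pass (edgeR adjusted p = 0.145), and the shRNA difference was 0.35 and did (edgeR adjusted p = 0.0297).

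The level of miR-877-5p was 46.3, 41.7, 45.7 and 39.8 CPM with shRNA, 5.99, 4.98, 8.52 and 5.73 CPM with shRNA_2bp, 24.4, 17.4, 15 and 14.6 CPM with shRNA_5bp, and 39, 30.3, 31.1 and 29.9 CPM with Empty_Vector. No group overlapped another, in the order shRNA_2bp, shRNA_5bp, Empty_Vector and shRNA from low to high. The shRNA_2bp values rest on 7 to 12 reads a library. miR-877-5p fell by 2.39 ± 0.209 with shRNA_2bp (edgeR adjusted p = 4.74e-11) and fell by 0.88 ± 0.175 with shRNA_5bp (edgeR adjusted p = 8.42e-05), both against Empty_Vector. It rose by 0.42 ± 0.135 with shRNA (edgeR adjusted p = 0.0159). That rise did not pass without Empty_Vector library 4 (0.34, edgeR adjusted p = 0.109) or without a filter on low counts (0.39, edgeR adjusted p = 0.108).

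The 3p arm of the same hairpin, miR-877-3p, had 25.5, 28.4, 38 and 31.7 CPM with shRNA, 8.38, 10.9, 6.39 and 12.3 CPM with shRNA_2bp, 10.2, 14.8, 10.4 and 11.6 CPM with shRNA_5bp, and 30.6, 31.6, 36.3 and 25.7 CPM with Empty_Vector. The mutated hairpins overlapped each other and lay below both remaining groups, which overlapped too. It fell by 1.69 ± 0.210 with shRNA_2bp (edgeR adjusted p = 4.64e-08) and fell by 1.31 ± 0.204 with shRNA_5bp (edgeR adjusted p = 2.54e-06) against Empty_Vector. With shRNA the difference was 0.01 ± 0.153 (edgeR adjusted p = 0.979; 95% interval -0.30 to 0.32).

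Between the mutated hairpins 2 of the 3 mirtron arms passed the test, both 5p arms, and both were higher with shRNA_5bp, as 36.9% of all tested miRNAs were. miR-1224-5p was 2.18 ± 0.188 higher with shRNA_5bp than with shRNA_2bp (edgeR adjusted p = 4.94e-11), a fold of 4.53, and miR-877-5p was 1.50 ± 0.249 higher (edgeR adjusted p = 7.33e-06), a fold of 2.84. For miR-877-3p the difference was 0.38 ± 0.262 (edgeR adjusted p = 0.225), with a 95% interval of -0.16 to 0.91. Against the unmutated shRNA all 3 arms fell with both mutated hairpins, where 33.5% of all fell with shRNA_2bp and 24.6% with shRNA_5bp. With shRNA_2bp the fold changes were -2.88 for miR-1224-5p, -2.81 for miR-877-5p and -1.70 for miR-877-3p. With shRNA_5bp they were -0.70, -1.30 and -1.32 in the same order of arms. In all 6 every library lay below every shRNA library, as 30.8% of all tested miRNAs did with shRNA_2bp and 23.8% with shRNA_5bp.

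**Figure D2:**
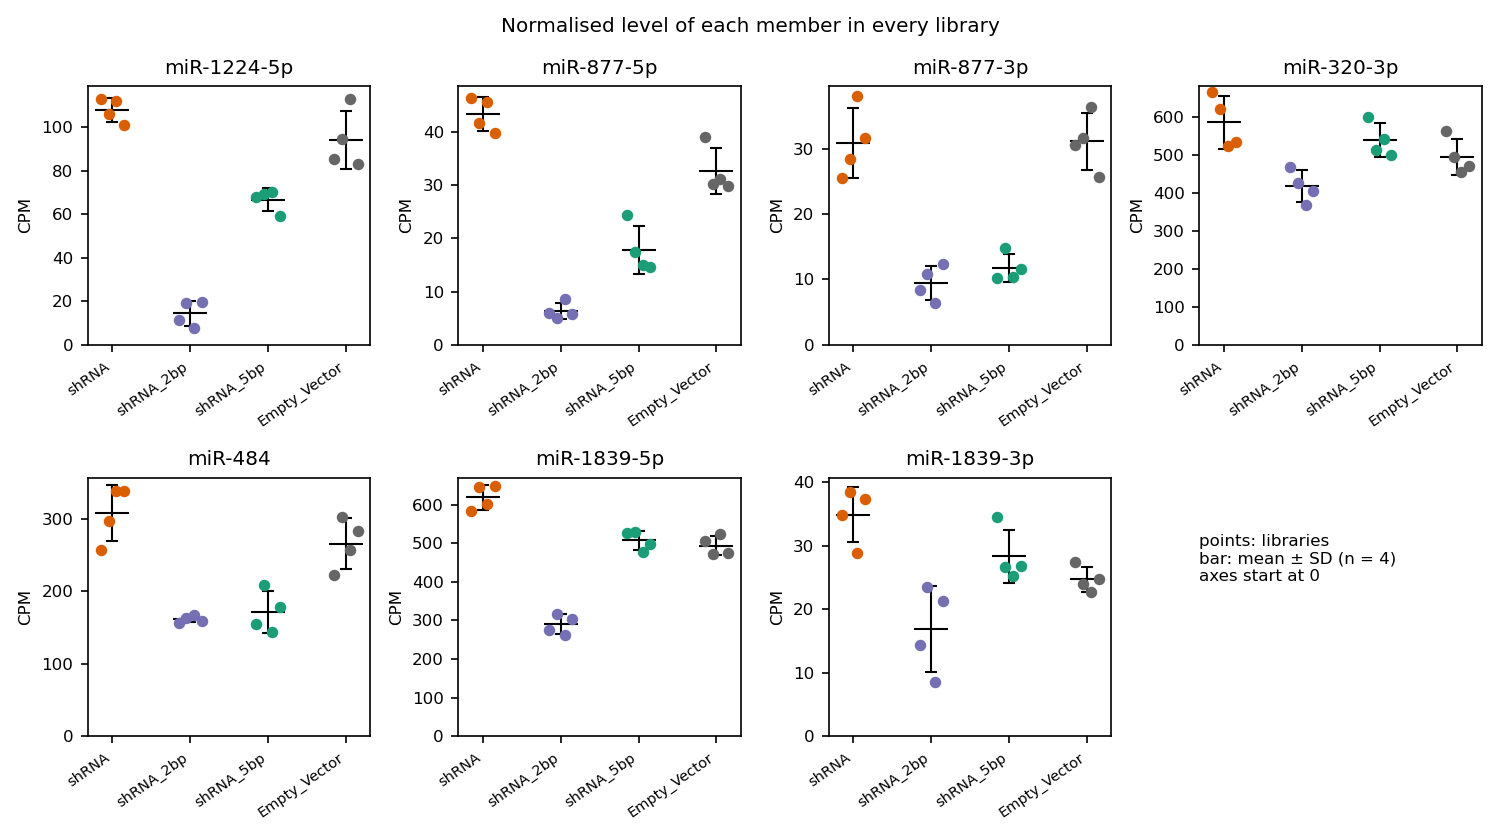
Level of each of the 7 miRNAs in CPM, 1 panel a miRNA with its own axis from 0, with a point for each of the 4 libraries of a group and a bar for the mean ± SD. All 7 miRNAs have their lowest mean in shRNA_2bp. There miR-1224-5p has 7.81 to 19.6 CPM against 83.3 to 113 CPM with Empty_Vector, and miR-320-3p has 369 to 470 CPM against 456 to 564 CPM.

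The balance of the 2 arms of a hairpin does not depend on library scaling, and it was compared over the 119 hairpins with both arms tested. In miR-877 the 5p reads over the 3p reads were 1.81, 1.47, 1.2 and 1.26 with shRNA, 0.714, 0.458, 1.33 and 0.467 with shRNA_2bp, 2.4, 1.18, 1.44 and 1.26 with shRNA_5bp, and 1.27, 0.957, 0.857 and 1.16 with Empty_Vector. The shRNA_2bp libraries 1, 2 and 4 lay below all others, and its library 3 lay among them. By limma on the log2 ratio, with a pseudocount of 0.5 reads, the ratio was 1.05 ± 0.319 lower with shRNA_2bp than with shRNA (log2 difference -1.05, adjusted p = 0.017) and 1.12 ± 0.319 higher with shRNA_5bp than with shRNA_2bp (adjusted p = 0.0114). The -1.05 missed the threshold without shRNA library 1 (-0.93, limma adjusted p = 0.0525) or without shRNA_2bp library 2 (-0.87, limma adjusted p = 0.0551). The share of all 119 ratios that changed was 36.1% between shRNA_2bp and shRNA and 43.7% between shRNA_5bp and shRNA_2bp.

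Against Empty_Vector the miR-877 arm ratio passed the test with none of the hairpins. The log2 differences were 0.43 with shRNA (limma adjusted p = 0.439), -0.62 with shRNA_2bp (limma adjusted p = 0.137) and 0.50 with shRNA_5bp (limma adjusted p = 0.228), each ± 0.319. Of the 119 ratios 10.1% changed with shRNA, 37% with shRNA_2bp and 37.8% with shRNA_5bp. Without shRNA_2bp library 3 the shRNA_2bp difference was -0.94 and passed (limma adjusted p = 0.0148). Between shRNA_5bp and shRNA the difference was 0.07 (limma adjusted p = 0.912), in a comparison where 26.1% of the ratios changed. The shRNA_2bp ratios rest on 7 to 12 reads of the 5p arm and 9 to 24 reads of the 3p arm a library.

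The other arm of the Mir1224 hairpin, miR-1224-3p, had 6 reads over the 4 shRNA libraries, 0 with shRNA_2bp, 3 with shRNA_5bp and 11 with Empty_Vector, too few to test. A count of 0 over the 4 shRNA_2bp libraries allows a level of up to 0.475 CPM, which covers counting error only. miR-702-3p, of another mouse mirtron, had 63 reads with shRNA, 3 with shRNA_2bp, 7 with shRNA_5bp and 53 with Empty_Vector, and its partner miR-702-5p had 5 with shRNA, 0 with shRNA_2bp, 2 with shRNA_5bp and 15 with Empty_Vector. miR-320-5p, the other arm of the Mir320 hairpin, had 3 reads with shRNA, 0 with shRNA_2bp, 0 with shRNA_5bp and 4 with Empty_Vector. None of these arms passed the filter for testing.

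Other possible mirtrons were sought by position alone, and how their precursors are processed was not examined. Of 1005 mouse hairpins with a RefSeq sequence, 23 had both ends within 10 bases of the ends of an annotated intron, 16 of them exactly. These 23 gave 44 mature names, of which 3 are the mirtron arms above and 41 are other names. The 41 include miR-1224-3p, from the listed Mir1224 hairpin, and 13 of the 41 had no read in any library. Only 5 of the 41 passed the filter on low counts, miR-1981-5p, miR-1981-3p, miR-6944-3p, miR-6958-3p and miR-7080-5p, and some of these had under 10 reads in each library of a mutated hairpin, so that they passed through the deeper groups. The 5 cannot stand for the 41.

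The 2 with the most reads are described. miR-1981-5p had 667, 681, 721 and 682 CPM with shRNA, 247, 243, 237 and 252 CPM with shRNA_2bp, 449, 378, 395 and 370 CPM with shRNA_5bp, and 672, 707, 702 and 665 CPM with Empty_Vector. The shRNA_2bp libraries lay lowest, the shRNA_5bp libraries next, and shRNA overlapped Empty_Vector, the order seen for miR-1224-5p. Its fold changes were -1.49 ± 0.067 with shRNA_2bp (edgeR adjusted p = 1.11e-17), -0.79 ± 0.065 with shRNA_5bp (edgeR adjusted p = 2.24e-11) and 0.00 ± 0.062 with shRNA (edgeR adjusted p = 0.988). miR-6944-3p averaged 96 ± 6.08 CPM with shRNA, 30.5 ± 5.02 CPM with shRNA_2bp, 33.8 ± 2.86 CPM with shRNA_5bp and 52.7 ± 4.47 CPM with Empty_Vector (SD, n = 4 each). Its fold changes were -0.80 ± 0.132 with shRNA_2bp (edgeR adjusted p = 5.88e-06), -0.62 ± 0.132 with shRNA_5bp (edgeR adjusted p = 0.000187) and 0.86 ± 0.108 with shRNA (edgeR adjusted p = 2.5e-07).

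Summed over the 41 names the level was 824 to 887 CPM with shRNA, 277 to 310 CPM with shRNA_2bp, 427 to 507 CPM with shRNA_5bp and 765 to 819 CPM with Empty_Vector. miR-1981 made up most of that sum. Without its arms the sum was 130 to 146 CPM with shRNA, 36.9 to 49.1 CPM with shRNA_2bp, 47.7 to 53.5 CPM with shRNA_5bp and 78.1 to 87.1 CPM with Empty_Vector. The 36 names that did not pass the filter summed to 17.8 to 22.1 CPM with shRNA, 7.18 to 9.82 CPM with shRNA_2bp, 11.5 to 12.8 CPM with shRNA_5bp and 16.5 to 18.3 CPM with Empty_Vector. In all 3 sums every library of both mutated hairpins lay below every Empty_Vector library, and the untested names rest on 54 reads with shRNA_2bp and 77 reads with shRNA_5bp in all. These sums are a description, with no test.

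With shRNA_2bp both miRNAs of capped precursors fell, where 32.3% of all tested miRNAs fell, with smaller fold changes than any mirtron arm. With shRNA_5bp, where 26.7% of all fell, miR-484 fell while miR-320-3p did not pass the test. miR-484 represses the mitochondrial fission protein Fis1 in mouse heart cells, and miR-320-3p represses the transferrin receptor in human cells. miR-484 had 257, 297, 339 and 339 CPM with shRNA, 157, 163, 168 and 159 CPM with shRNA_2bp, 155, 209, 144 and 179 CPM with shRNA_5bp, and 222, 302, 257 and 284 CPM with Empty_Vector. All 8 libraries of the mutated hairpins lay below all Empty_Vector libraries, and they overlapped each other. miR-484 fell by 0.72 ± 0.111 with shRNA_2bp (edgeR adjusted p = 2.29e-06) and fell by 0.61 ± 0.111 with shRNA_5bp (edgeR adjusted p = 3.23e-05), each against Empty_Vector. With library totals in place of TMM the shRNA_5bp value was -0.36 (edgeR adjusted p = 0.0125). The difference between shRNA_5bp and shRNA_2bp was 0.11 ± 0.118 (edgeR adjusted p = 0.429; 95% interval -0.13 to 0.35).

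With shRNA, miR-484 was 0.20 ± 0.103 above Empty_Vector (edgeR adjusted p = 0.129; 95% interval -0.01 to 0.42). Same-numbered libraries deviated together in this comparison and between shRNA_2bp and shRNA, and were not taken as pairs in the others. With the replicate number as a block over all 16 libraries, the miR-484 difference was 0.21 and passed the test (edgeR adjusted p = 0.0337). It also passed with library totals (0.35, edgeR adjusted p = 0.0155), without Empty_Vector library 2 (edgeR adjusted p = 0.0343) and without shRNA library 1 (edgeR adjusted p = 0.0134). Against shRNA, miR-484 fell by 0.93 with shRNA_2bp and fell by 0.82 with shRNA_5bp, with no overlap in either comparison.

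The level of miR-320-3p was 668, 623, 524 and 534 CPM with shRNA, 470, 426, 369 and 405 CPM with shRNA_2bp, 602, 513, 544 and 500 CPM with shRNA_5bp, and 564, 496, 456 and 471 CPM with Empty_Vector. Each hairpin's libraries overlapped those of Empty_Vector, and in every group library 1 was the highest. miR-320-3p fell by 0.25 ± 0.088 with shRNA_2bp (edgeR adjusted p = 0.0156), rose by 0.24 ± 0.085 with shRNA (edgeR adjusted p = 0.0283) and was 0.12 ± 0.088 higher with shRNA_5bp without passing the test (edgeR adjusted p = 0.265). Changes of this size depended on the scaling: with library totals the shRNA_2bp value was -0.07 (edgeR adjusted p = 0.508) and did not pass, the shRNA value was 0.38 (edgeR adjusted p = 0.000439), and the shRNA_5bp value was 0.36 (edgeR adjusted p = 0.000598) and did pass. The rise with shRNA did not pass with DESeq2 (0.21, DESeq2 adjusted p = 0.0759) or with edgeR's RLE factors (0.21, edgeR adjusted p = 0.0583). It also failed without Empty_Vector library 4 (0.18, edgeR adjusted p = 0.152), shRNA_2bp library 3 or 4 (edgeR adjusted p = 0.0612 and 0.0764) or shRNA_5bp library 2 (edgeR adjusted p = 0.0611). The fall with shRNA_2bp failed without Empty_Vector library 1 (-0.17, edgeR adjusted p = 0.0989).

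Directly between hairpins, miR-320-3p was 0.49 lower with shRNA_2bp than with shRNA and 0.36 ± 0.090 higher with shRNA_5bp than with shRNA_2bp (edgeR adjusted p = 0.00111), in both cases with no overlap. The 0.36 was 0.21 when these groups alone were fitted (edgeR adjusted p = 0.035) and 0.23 with no filter on low counts (edgeR adjusted p = 0.0236). Between shRNA_5bp and shRNA the difference was -0.13 (edgeR adjusted p = 0.233). It passed with no filter on low counts and in 6 of the 16 fits that each left out 1 library, those of Empty_Vector 2 and 3, shRNA 1, 2 and 3, and shRNA_5bp 4.

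Within a library the reads of miR-320-3p over those of miR-484 were 2.59, 2.1, 1.55 and 1.57 with shRNA, 2.98, 2.61, 2.19 and 2.55 with shRNA_2bp, 3.88, 2.45, 3.78 and 2.8 with shRNA_5bp, and 2.53, 1.64, 1.77 and 1.65 with Empty_Vector. The means of the mutated hairpins were the higher ones, with an overlap through Empty_Vector library 1. The mean log2 ratio was 0.76 higher with shRNA_5bp and 0.46 higher with shRNA_2bp than with Empty_Vector, each with an exact two-sided permutation p of 0.0571, and 0.03 higher with shRNA with an exact p of 0.971. Adjusted over the 6 ratio tests made, the lowest exact permutation p was 0.171, so none passed; the smallest p that 4 libraries against 4 allow is 0.0286. Between same-numbered libraries, shRNA_2bp exceeded Empty_Vector in 4 of 4 pairs, by 0.23 to 0.67 on the log2 scale. An exact sign-flip permutation test gave p = 0.125, the smallest that 4 pairs allow. That test was chosen after seeing the data, and the numbers were not taken to pair these groups. They were taken to pair shRNA with Empty_Vector, where the mean difference was 0.03, above 0 in 2 of 4 pairs (exact sign-flip permutation p = 0.875). The other ratio compared this way, miR-1224-5p over miR-877-5p, differed from Empty_Vector by -0.21 with shRNA, -0.43 with shRNA_2bp and 0.38 with shRNA_5bp, with exact permutation p of 0.286, 0.514 and 0.171.

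Both arms of the snoRNA-like miR-1839 fell with shRNA_2bp, where 32.3% of all tested miRNAs fell. Both rose with shRNA, where 19.7% of all rose, and neither passed the test with shRNA_5bp. miR-1839-5p had 584, 645, 601 and 648 CPM with shRNA, 275, 318, 263 and 304 CPM with shRNA_2bp, 527, 528, 477 and 498 CPM with shRNA_5bp, and 505, 473, 523 and 474 CPM with Empty_Vector. All shRNA_2bp libraries lay below the rest, all shRNA libraries lay above, and shRNA_5bp overlapped Empty_Vector. It fell by 0.76 ± 0.071 with shRNA_2bp (edgeR adjusted p = 1.48e-10), rose by 0.33 ± 0.067 with shRNA (edgeR adjusted p = 0.000258), and differed by 0.04 ± 0.069 with shRNA_5bp (edgeR adjusted p = 0.604; 95% interval -0.10 to 0.19). That last value was 0.29 with library totals (edgeR adjusted p = 0.00257) and -0.01 with DESeq2 (adjusted p = 0.877).

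The 3p arm, miR-1839-3p, had 34.9, 38.5, 28.9 and 37.4 CPM with shRNA, 14.4, 23.5, 8.52 and 21.3 CPM with shRNA_2bp, 34.5, 26.7, 25.3 and 26.8 CPM with shRNA_5bp, and 27.5, 24, 22.7 and 24.7 CPM with Empty_Vector. The shRNA libraries lay above those of Empty_Vector, while shRNA_2bp and shRNA_5bp each overlapped them. It fell by 0.52 ± 0.201 with shRNA_2bp (edgeR adjusted p = 0.0248), rose by 0.49 ± 0.161 with shRNA (edgeR adjusted p = 0.0176), and differed by 0.18 ± 0.191 with shRNA_5bp (edgeR adjusted p = 0.434). The fall failed the test with library totals (-0.34, edgeR adjusted p = 0.151) and without Empty_Vector library 1, shRNA_2bp library 1 or shRNA_2bp library 3 (edgeR adjusted p = 0.0621, 0.0926 and 0.0747). The rise failed without Empty_Vector library 4 (0.45, edgeR adjusted p = 0.0639).

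Between hairpins, miR-1839-5p was 0.81 ± 0.072 higher with shRNA_5bp than with shRNA_2bp (edgeR adjusted p = 1.1e-10) and miR-1839-3p was 0.70 ± 0.223 higher (edgeR adjusted p = 0.00823). The 3p value did not pass when these groups alone were fitted (0.56, edgeR adjusted p = 0.0752). Against shRNA, the fold changes with shRNA_2bp were -1.09 for the 5p arm and -1.02 for the 3p arm. With shRNA_5bp they were -0.29 for the 5p arm, which passed (edgeR adjusted p = 0.000875), and -0.32 for the 3p arm, which did not (edgeR adjusted p = 0.156). The -0.29 was -0.19 with library totals and -0.49 with no filter, and lay between -0.46 and -0.44 without Empty_Vector library 2, shRNA library 1 or shRNA library 3. The -0.32 passed with no filter on low counts and without Empty_Vector library 2 or 3 or shRNA library 3.

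The 5p arm of miR-1839 outnumbered the 3p arm in every library, by 16.8 to 20.8 times with shRNA, 13.5 to 30.9 times with shRNA_2bp, 15.3 to 19.8 times with shRNA_5bp and 18.4 to 23 times with Empty_Vector. These ranges overlapped in all pairs of groups. By limma the log2 differences in this ratio lay between -0.16 and 0.02 over the 6 comparisons, and 0 of the 6 passed the test, with unadjusted p of 0.441 or more. In the 5p over 3p balance, miR-1839 therefore showed no detectable difference where miR-877 showed one in 2 of the 6 comparisons; whether the 2 hairpins differ in that was not tested.

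**Figure D3:**
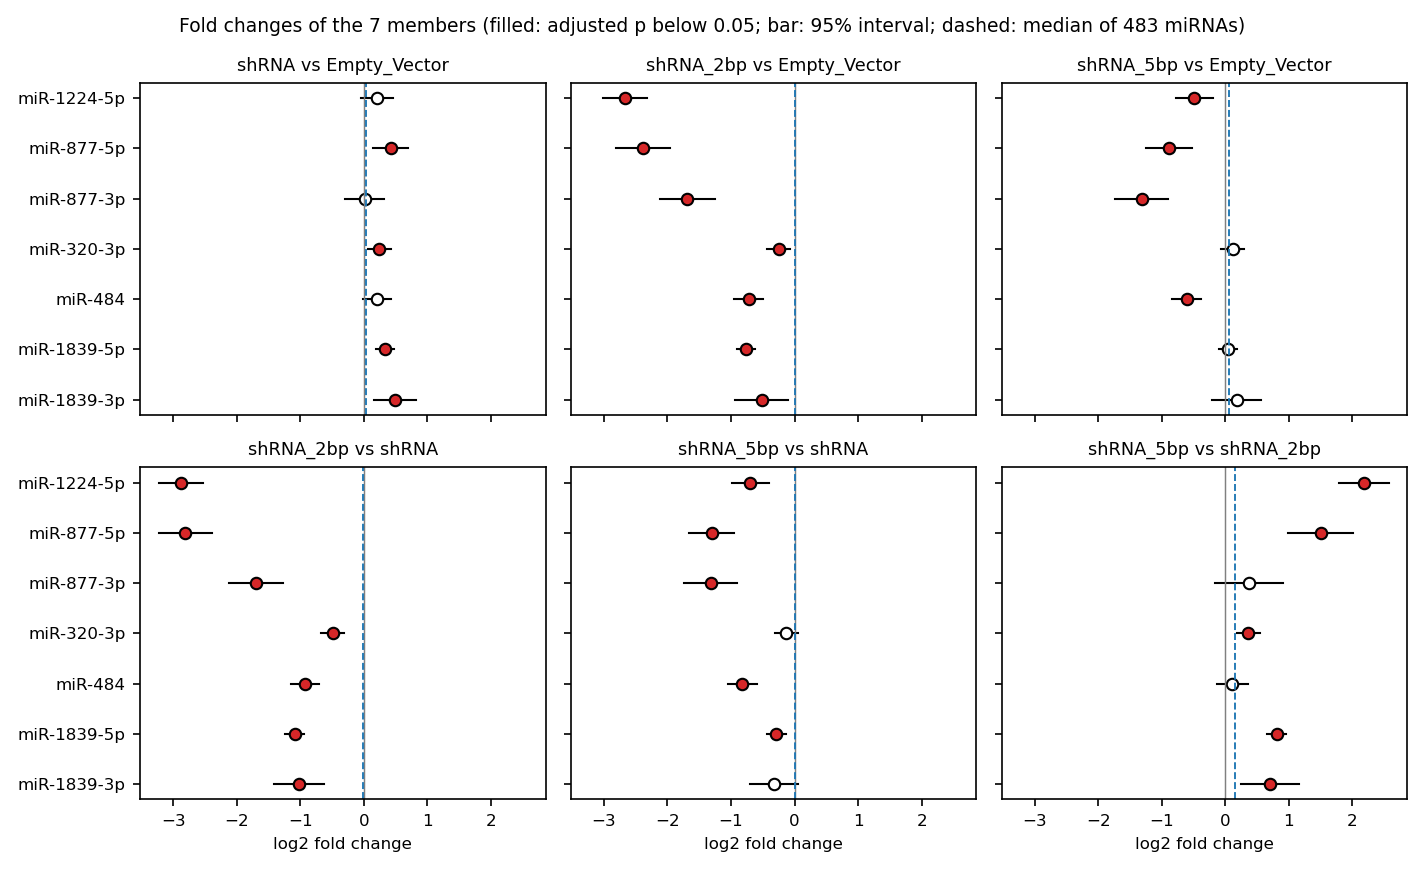
Log2 fold change of each of the 7 miRNAs in the 3 comparisons with Empty_Vector and the 3 between hairpins, with bars for the 95% interval, filled points where edgeR's adjusted p was below 0.05, and a dashed line at the median of all tested miRNAs. With shRNA_2bp against Empty_Vector the 3 mirtron arms lie at -2.67 to -1.69 and the other 4 members at -0.76 to -0.25.

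Counted over the 7 members, 4 rose with shRNA against Empty_Vector, where 19.7% of all 483 tested miRNAs rose, and 3 members lay above every Empty_Vector library, as 18.2% of all tested miRNAs did. The members' median was 0.24 and that of all tested miRNAs 0.04. The count of 4 was 1, miR-1839-5p, without Empty_Vector library 4, and it was 6 with library totals. With the replicate number as a block, miR-484 passed too (edgeR adjusted p = 0.0337). With shRNA_2bp all 7 members fell, where 32.3% of all tested miRNAs fell, and 5 lay below every Empty_Vector library, as 29.4% of all did. The members' median was -0.76 and that of all 0.01. With library totals 5 of the 7 fell. The member counts here and below are a description, since the members were listed with earlier results of these data known.

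With shRNA_5bp 4 members fell against Empty_Vector, the 3 mirtron arms and miR-484, where 26.7% of all tested miRNAs fell, and the same 4 lay below every Empty_Vector library, as 23.4% of all did. The members' median was -0.49 and that of all 0.06. With library totals 3 fell and 2 rose. Against shRNA all 7 members fell with shRNA_2bp, where 33.5% of all fell, and all 7 lay below every shRNA library, as 30.8% of all did. With shRNA_5bp 5 of the 7 fell against shRNA, where 24.6% of all fell, and 5 lay below every shRNA library, as 23.8% of all did. Between the mutated hairpins 5 of the 7 were called higher with shRNA_5bp than with shRNA_2bp, where 36.9% of all were, and 5 lay above every shRNA_2bp library, as 32.7% of all did.

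With shRNA_2bp the mirtron arms stood apart in size from the other 4 members. The 95% intervals of the 3 mirtron arms ran from -3.02 to -1.26 and those of the other 4 members from -0.95 to -0.07, without overlap. The capped class (-0.95 to -0.07) and the miR-1839 arms (-0.94 to -0.11) overlapped each other. With shRNA_5bp the point values ran from -1.31 to -0.49 for the mirtron arms and from -0.61 to 0.18 for the others, and miR-484 at -0.61 lay within the mirtrons' range. The mirtron arms made up 9.87% to 11.6% of the reads of the 7 members with shRNA, 2.73% to 4.06% with shRNA_2bp, 6.61% to 7.42% with shRNA_5bp and 9.97% to 12.5% with Empty_Vector. That share does not depend on scaling between libraries, and it was lower in every library of both mutated hairpins than in every library of the remaining groups. The difference between classes was not tested, since the members of a class are not replicates and both miR-877 arms share a hairpin.

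**Figure D4:**
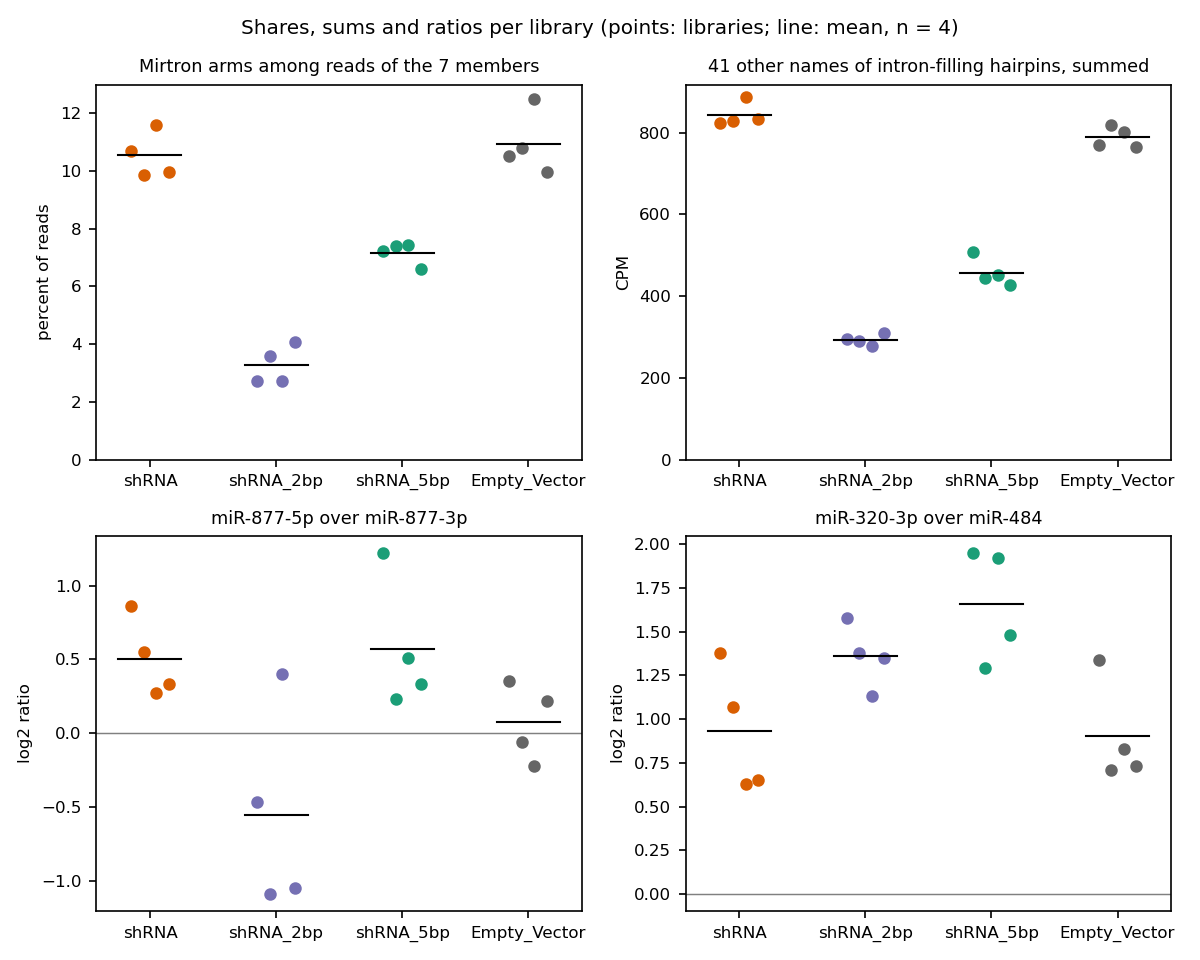
Per-library shares, sums and ratios, with a point for each library and a line at the group mean (n = 4): the mirtron arms' percent of the 7 members' reads, the summed CPM of 41 other names of intron-filling hairpins, and the log2 ratios of miR-877-5p over miR-877-3p and of miR-320-3p over miR-484, from reads plus 0.5. The share is 2.73% to 4.06% with shRNA_2bp against 9.97% to 12.5% with Empty_Vector, and in the miR-877 ratio 1 shRNA_2bp library at 0.40 stands apart from the other 3, at -1.09 to -0.47.

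**Figure D5:**
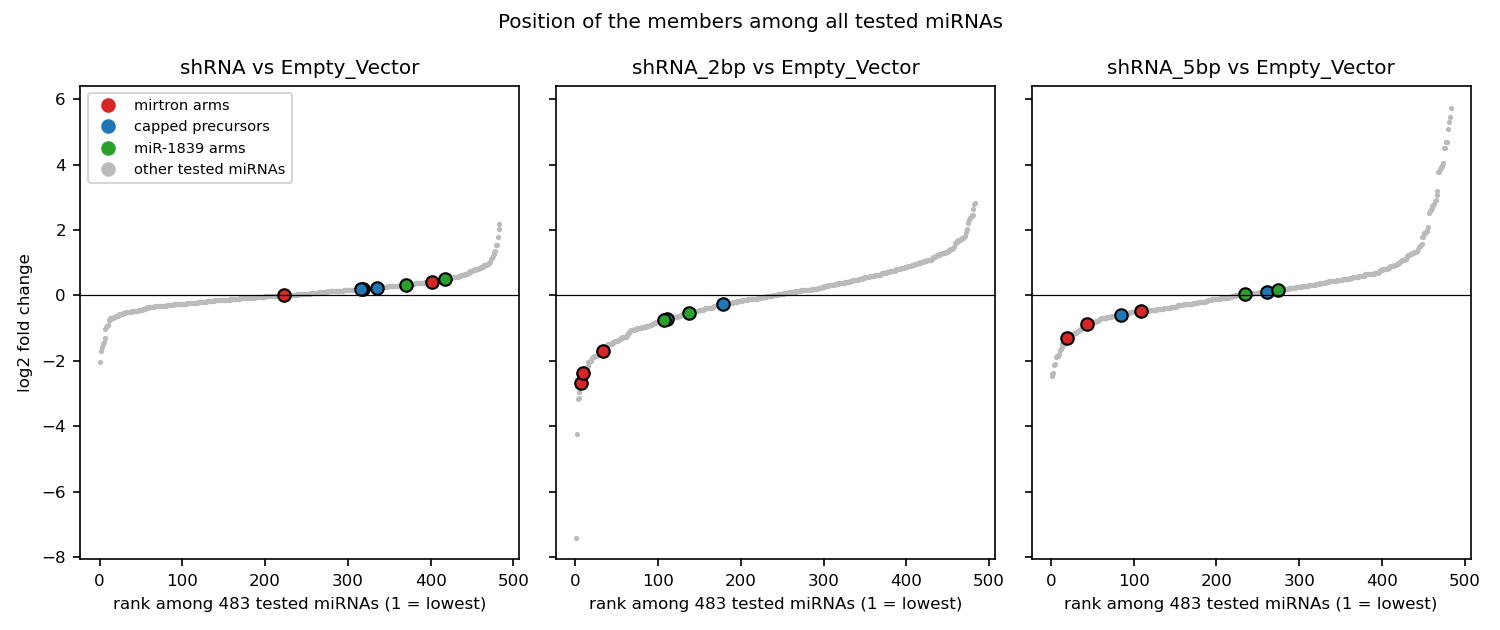
Log2 fold changes of all 483 tested miRNAs in each comparison with Empty_Vector, sorted from lowest to highest, with the 7 members marked by class. With shRNA_2bp the mirtron arms stand at ranks 7, 9 and 33 from the lowest, and with shRNA_5bp at ranks 20, 43 and 109.

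Base composition was set beside the fold changes over all miRNAs. Over the 427 of 483 tested miRNAs with a sequence, Spearman's rho between GC content and fold change against Empty_Vector was -0.08 for shRNA, -0.24 for shRNA_2bp and -0.20 for shRNA_5bp, a description across miRNAs of the same libraries with no test. The median GC content of those miRNAs was 50%, which the mirtron arms and miR-484 exceed and miR-1839-5p does not reach. The part of base composition in the members' differences was not tested.

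Across the 16 libraries the log2 levels of members were correlated to differing degrees, given here as a description since libraries of a group share treatment and all share the scaling. Pearson's r was 0.96 between miR-1224-5p and miR-1839-5p, 0.90 between miR-1224-5p and miR-877-5p, 0.84 between both arms of miR-877 and 0.86 between both arms of miR-1839. The lowest was 0.34, between miR-320-3p and miR-484, the members of the capped class. Among the 353 miRNAs outside the 7 members with a mean of at least 10 CPM, the levels most like those of miR-1224-5p were miR-487b-3p and miR-330-5p (r = 0.97 each), and those most like miR-877-5p were miR-770-5p (r = 0.98) and miR-760-3p (r = 0.97). For miR-320-3p they were miR-3099-3p (r = 0.88) and miR-221-3p (r = 0.82), for miR-484 miR-148a-3p (r = 0.92) and miR-1983 (r = 0.90), and for miR-1839-5p miR-212-5p and miR-187-3p (r = 0.96 each). With shRNA_2bp against Empty_Vector the fold changes were -2.68 for miR-770-5p, -2.95 for miR-760-3p, -0.97 for miR-487b-3p and -1.51 for miR-330-5p. Falls as large as those of the mirtron 5p arms thus also occurred outside the 7 members.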

How the data were processed

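The deposited table holds counts of reads per mature mouse miRNA, per the file headers, for 16 libraries. Per the labels' protocols, 100 ng of total RNA entered an adapter-ligation small RNA kit with 15 PCR cycles and size selection. The submitters' processing notes name bcl2fastq 2.20.0.422, Trim Galore 0.6.0, cutadapt 1.15, Bowtie 1.1.1, edgeR and the build GRCm38.p6, without the role of each; the counting settings are not given in the sources used here. Reads were counted without molecular identifiers, so detection floors cover counting error only.

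From these counts, edgeR 4.0.16 (limma 3.58.1, R 4.3.3) removed low counts with its own filter, leaving 483 of 1978 names (611 had no count), scaled by TMM, and fitted all 16 libraries together with a robust quasi-likelihood test and 12 residual degrees of freedom. Adjusted p-values are Benjamini-Hochberg over the 483. Arm ratios were fitted with limma over 119 hairpins, and the scripts were tested on simulated data. Hairpin positions and sequences are from RefSeq on GRCm38.p6, and introns from GENCODE on GRCm38. Sequences of miR-320-3p, miR-1839-3p and the Mir320 hairpin were not used here.

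The members and marker lists were chosen with earlier results of these data known. All 7 members were named in every comparison, with other arms of their loci, the tested miRNAs of intron-filling hairpins and, for each locus, the 2 miRNAs most alike. Same-numbered libraries deviated together over 360 miRNAs in 2 of the 6 comparisons. Their correlations were 0.111 to 0.282 between shRNA and Empty_Vector and 0.166 to 0.198 between shRNA_2bp and shRNA. The numbers were therefore taken to pair those libraries, but the main fits carried no pairing term. Pairing entered only in the replicate block and the within-pair ratios. No labels name a batch, and no 2 libraries had the same counts. Alternatives were DESeq2 1.42.0, RLE factors, library totals, no filter on low counts, a replicate block, fits of 2 groups alone, a pseudocount of 1, and each library left out in turn.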

Additional observations from a re-analysis of the deposited data

Results flagged for a closer look

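Within the 44 groups of 4 libraries examined, 3 held a library far from the others, with a gap to its nearest neighbour, as a share of the group's range, above Dixon's 95% critical value; chance gives that in about 1 in 20 groups. miR-1839-3p had 34.5 CPM in shRNA_5bp library 1, against 25.3 to 26.8 CPM in the other 3. miR-877-5p had 39.0 CPM in Empty_Vector library 1, against 29.9 to 31.1 CPM in the other 3. The log2 ratio of miR-1839-5p over miR-1839-3p was 4.37 in shRNA library 3, against 4.06 to 4.11 in the other 3. None of these libraries was left out of the values reported.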

How the results depend on the processing

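Of the 42 member fold changes (7 miRNAs, 6 comparisons), 238 of 252 values under other scaling, filters, tools and sample sets and 650 of 672 values with 1 library left out stayed on the same side of the threshold, and no called value changed sign. Scaling limits the small changes: library totals moved the median of all tested miRNAs by 0.14 (shRNA), 0.18 (shRNA_2bp) and 0.24 (shRNA_5bp) against Empty_Vector, so differences under about that size depend on it. Some larger ones lost their call too: miR-1224-5p went from -0.49 to -0.25 with shRNA_5bp, and miR-1839-3p from -0.52 to -0.34 with shRNA_2bp. Rises made up 56.5% of calls with shRNA (77.2% with library totals, 49% with no filter on low counts), 50.8% with shRNA_2bp (61.9% and 38.2%) and 54.1% with shRNA_5bp (72.7% and 38.2%). The number of members that rose with shRNA_5bp against Empty_Vector was 2 with library totals. With 1 library left out, members that rose with shRNA against Empty_Vector numbered 1 to 5, and hairpins with a changed arm ratio 6 to 22 between shRNA and Empty_Vector and 18 to 30 between shRNA_5bp and shRNA. With the replicate block miR-484 passed with shRNA (0.21, edgeR adjusted p = 0.0337), and no other member call changed. Same-numbered libraries correlated at 0.0943 to 0.163 between shRNA_2bp and Empty_Vector, whose lowest pair missed 0.1, and down to -0.0615 in the remaining 3 comparisons, so the numbers were not taken to pair those. Within-pair ratios of members, an alternative chosen after seeing the data, were tested 4 times by exact sign flips, which 4 pairs cannot take below p = 0.125. Small differences that did not pass changed sign with no filter: against Empty_Vector, miR-877-3p was -0.02 with shRNA, and with shRNA_5bp miR-320-3p was -0.12, miR-1839-5p -0.19 and miR-1839-3p -0.06; miR-484 was -0.02 between shRNA_5bp and shRNA_2bp. Depth limits miR-877 most, with 7 to 24 reads an arm in each shRNA_2bp library.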
